A study of Sus scrofa domesticus with 150 samples.

Results

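Gene expression at the wound edge was compared with gene expression in the wound center on day 5 after wounding. The members are the 12 samples whose labels give day 5, of 150 samples in the whole series: 6 edge and 6 center samples. Each edge sample was paired with the center sample that carries the same animal and wound label. The series followed full-thickness circular excisional wounds on the dorsum of 6 domestic pigs (Yorkshire-mix females, age not given in the sources used here) from the excised skin of day 0 through later days of healing. All wounds were dressed and received no other treatment. On each sampling day 3 of the animals were biopsied at the edge and in the center of a wound, a topical antibiotic was put on the biopsy site, and a sampled wound left the experiment. Day 5 holds 2 wounds of each of animals 1323, 1324 and 1325, numbered here as wounds 1 and 2, wounds 3 and 4, and wounds 5 and 6. Whole biopsies were sequenced after poly-A enrichment. How much of the surrounding unwounded skin an edge biopsy held is not given in the sources used here. The 6 excised skin samples of day 0, 1 per animal, served as the unwounded reference.

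As background, a full-thickness wound has lost its epidermis together with the appendages and dermis under it. Keratinocytes at the margin migrate and proliferate to close the surface, while the center is filled by granulation tissue, in which macrophages, fibroblasts and sprouting vessels work in a collagen-rich matrix. Edge and center biopsies of a wound therefore sample tissues of different composition. In these bulk samples fewer cells of a type and less RNA per cell cannot be told apart.

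Levels are given as CPM, a gene's count relative to the total count of its library, scaled by the trimmed mean of M values (TMM) over the samples of day 5 and day 0, as the lowest, the median and the highest of the 6 samples of a group. Differences are log2 fold changes of edge against center with their standard error (SE), positive where the edge is higher, from edgeR's quasi-likelihood test with the wound as a block. A gene was called where the Benjamini-Hochberg adjusted p over all genes tested was below 0.05. Total counts ranged from 14034086 to 22251005 per day 5 sample, so that 3 counts, taken as the floor of detection, corresponded to 0.135 to 0.214 CPM. This floor covers counting error only. Of 14409 genes tested, 6024 (41.8%) were called, 3122 higher at the edge (21.7%) and 2902 higher in the center (20.1%). At least 2-fold differences were less even, with 1624 genes higher at the edge (11.3%) and 585 higher in the center (4.06%). The edge and center samples did not overlap for 1953 genes that were higher at the edge (13.6%) and 815 genes that were higher in the center (5.66%). In single wounds, called or not, 6647 to 7580 of the 14409 genes were higher at the edge and 6823 to 7762 higher in the center. These shares and counts are the background against which the counts of each gene list are given. A gene near 0 in the center passes the filter on low counts through the edge samples alone, so counts over the tested members of a list describe the list and are not independent support.

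**Figure D1:**
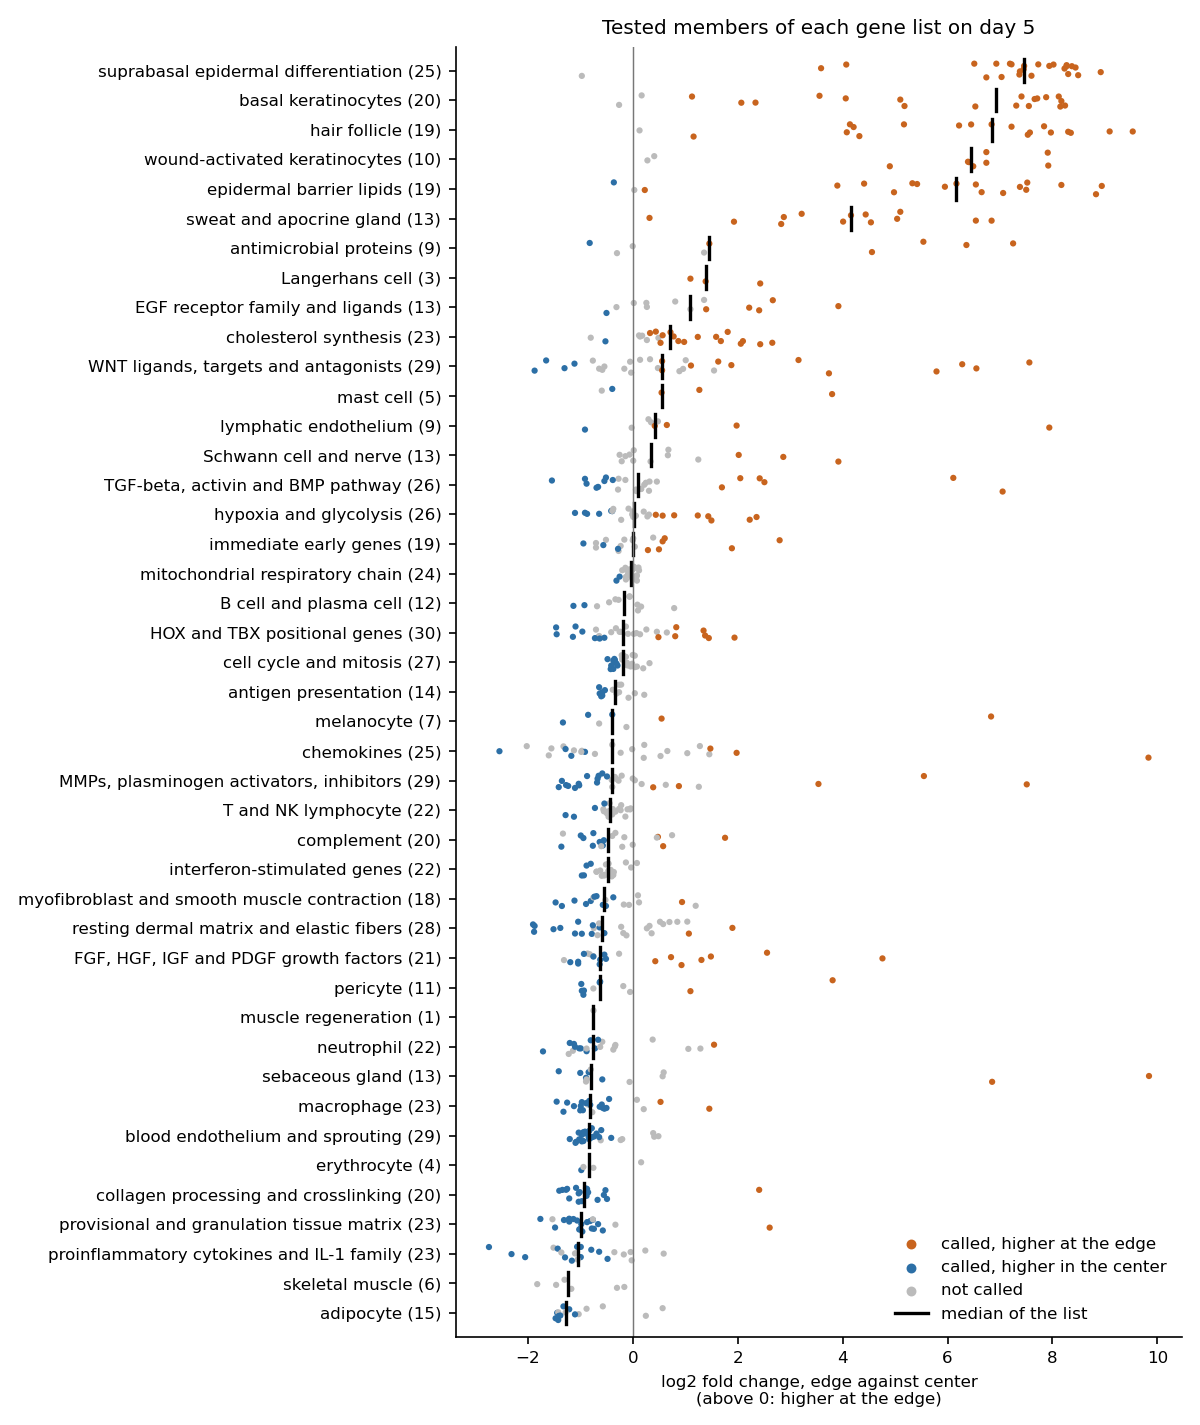
Log2 fold change of edge against center on day 5 (horizontal axis) for the tested members of 43 gene lists (rows, number of tested genes in parentheses). Each point is a gene, orange where called higher at the edge, blue where called higher in the center and grey where not called, and the black bar is the list median. The epidermal lists lie far to the right, with a median of 7.46 for suprabasal differentiation, and the medians of the granulation matrix, blood endothelium and macrophage lists lie left of 0.

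The largest differences were in the epidermis. Of 27 suprabasal differentiation genes found, 25 were tested, and 24 of them were called higher at the edge and 0 higher in the center, with a median log2 fold change of 7.46 beside -0.03 over all genes tested. KRT10 (ENSSSCG00025042112), the keratin of the first suprabasal layers, had 7640, 12500 and 19100 CPM at the edge and 25.1, 41.2 and 61.6 CPM in the center. The lowest edge value lay far above the highest center value, and the fold change of KRT10 was 8.23 ± 0.26 on the log2 scale (SE, n = 6 wounds, adjusted p = 2.69e-08). Its keratin partner KRT1 differed by 8.27 ± 0.24, and the desmosomal cadherin DSC1 by 8.44 ± 0.36. The lowest center value of KRT10 was above the floor of 0.135 to 0.214 CPM. That floor covers counting error only, and the origin of the KRT10 reads in the center samples was not tested. TGM3, a transglutaminase that crosslinks the cornified envelope, was the tested member that was not called. It had 408, 489 and 1250 CPM at the edge and 217, 1320 and 3870 CPM in the center, where it was higher in 5 of 6 wounds (log2 fold change -0.97 ± 0.64, adjusted p = 0.266). Without wound 3 TGM3 was called higher in the center, and the list then held 1 call against its direction. LOR and FLG, classical granular layer genes, were not found under these names and were not analysed here.

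Basal keratinocytes showed the same direction. Of 20 basal and basement membrane adhesion genes, all tested, 18 were called higher at the edge and 0 higher in the center, with a median of 6.92. KRT5, the keratin of the basal layer, had 5510, 7590 and 14000 CPM at the edge and 11.1, 24.0 and 105 CPM in the center, a difference of 8.17 ± 0.32. TP63, the transcription factor that maintains the basal state, had 102, 200 and 237 CPM at the edge and 0.102, 0.615 and 1.72 CPM in the center. The groups did not overlap for either gene. The center sample of wound 1 held the highest center value of KRT5, 105 CPM, against 11.1 to 33.5 CPM in the other 5 centers. Its list mean, the mean of log2(1 + CPM) over the genes found, was 5.1 against 3.12 to 3.54. Keratins of wound-activated keratinocytes were also higher at the edge. KRT6C, a keratin induced in migrating and hyperproliferative epidermis, had 5020, 7500 and 16200 CPM at the edge and 12.8, 29.0 and 177 CPM in the center (log2 fold change 7.92 ± 0.36). In that list 8 of 10 tested genes were called higher at the edge and 0 higher in the center, of 13 found among 24 listed. KRT6A was not found under that name. Near-identical keratin copies can share reads, so values of single keratins are uncertain to that extent.

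Enzymes of the epidermal lipid barrier and of sterol synthesis were higher at the edge as well. Of 19 barrier lipid genes tested 17 were called higher at the edge and 1 higher in the center, with a median of 6.17. The 1 center call became 0 with the counts summed per animal and without wound 1, 2, 4 or 6. The edge calls included SPTLC3, a subunit of the enzyme that begins sphingolipid synthesis, at 8.83 ± 0.36. The ceramide synthase CERS3 differed by 7.5 ± 0.48. In the cholesterol synthesis list 16 of 23 genes were called higher at the edge and 1 higher in the center, but the size of the differences was smaller, with a median of 0.72. HMGCS1, the synthase of an early step of the pathway, had 229, 303 and 326 CPM at the edge and 60.7, 66.0 and 80.3 CPM in the center, a difference of 2.10 ± 0.09. DHCR7, the enzyme of the final reduction step, differed by 2.66 ± 0.14. INSIG1, which holds the sterol-sensing machinery in the endoplasmic reticulum, was the member called higher in the center, at -0.52 ± 0.14, and without wound 5 it was not called (adjusted p 0.0529), which left 0 center calls.

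Appendage genes were carried by the edge samples, unevenly between wounds. Of 30 hair follicle genes found 19 passed the filter, and 18 of these were called higher at the edge and 0 higher in the center. KRT71, a keratin of the inner root sheath, had 0.729, 1370, 0.217, 698, 1340 and 390 CPM in the edge samples of wounds 1 to 6. The edge samples of wounds 1 and 3 thus held almost none of it, whereas the other 4 edge samples held 390 CPM or more. KRT71 was at 0.000 to 3.31 CPM in the center samples. The hair follicle list mean was 1.59 and 1.31 in the edge samples of wounds 1 and 3 and 4.11 to 5.61 in the others. The count of 18 became 29 without the filter and 28 with DESeq2 and with the counts summed per animal, all with wounds 1 and 3 kept. Leaving out both wounds, an alternative chosen after seeing the data, gave 27. A low value also occurred in unwounded skin, where KRT71 was at 9.76 CPM in the sample of animal 1324 against 2030 to 6350 CPM in the other 5 animals. SOX21, a transcription factor of hair and epidermal cells, was not low in wounds 1 and 3. It had 19.2, 32.8 and 46.4 CPM at the edge and 0.000, 0.000 and 0.153 CPM in the center.

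Sweat and apocrine gland genes were higher at the edge for 13 of 13 tested members (17 found), with a median of 4.16. EHF, an epithelial transcription factor, differed by 5.10 ± 0.39. PIP, a secreted apocrine protein, varied over the edge samples from 0.758 to 580 CPM and overlapped the center range of 0.000 to 4.90 CPM, although it was higher at the edge in 6 of 6 wounds. Sebaceous gland genes were split. KRT79 and ACSBG1, the latter an enzyme that activates long fatty acids, were called higher at the edge, with log2 fold changes of 9.84 ± 0.35 and 6.85 ± 0.37. With DESeq2 4 members in place of 2 were called at the edge. A further 5 of 13 tested members were called higher in the center, among them PPARG, a lipid-cell transcription factor that fat cells also express, at -1.41 ± 0.25. The PPARG call was lost without the wound as a block (highest adjusted p over the alternatives 0.0818).

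Genes of the other resident skin cells were called in both directions. Of 14 melanocyte genes 7 passed the filter, of which 2 were called higher at the edge and 3 higher in the center. The pigment enzyme genes TYR and TYRP1 were listed at 0 in all 12 samples, and in the skin of day 0 TYRP1 reached 0.277 CPM in 1 sample, so pigment cells could not be followed through them. RAB38, which carries melanosome cargo and is expressed in other epithelial cells too, had 52.7, 92.8 and 118 CPM at the edge and 0.104, 0.755 and 1.44 CPM in the center. EDNRB, an endothelin receptor found on melanoblasts and endothelium, was higher in the center at -1.33 ± 0.20. Of 13 tested Schwann cell and nerve genes 3 were called higher at the edge (23.1%) and 0 higher in the center. The edge share lay near the 21.7% of all genes tested. SOX10, the transcription factor of neural crest derived glia and pigment cells, was at 1.74, 2.43 and 9.63 CPM at the edge and 0.103, 0.405 and 1.07 CPM in the center. CD207, the langerin gene of Langerhans cells, differed by 2.43 ± 0.36, and the other 2 genes found of the 5 listed, CD1E and FCER1A, were also called higher at the edge. Of 5 tested mast cell genes 3 were called higher at the edge and 1 higher in the center. HDC and HPGDS, enzymes for histamine and prostaglandin D2, were higher at the edge at 1.27 ± 0.30 and 3.80 ± 0.62. MS4A2, a chain of the IgE receptor, was called at 0.55 ± 0.16 and lost its call without the block and without wound 1 or 2. KIT, the stem cell factor receptor, was called higher in the center at -0.39 ± 0.11, a call lost without the block, with the counts summed per animal and without wound 1, 2, 3 or 4, and 2 entries carry that name.

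**Figure D2:**
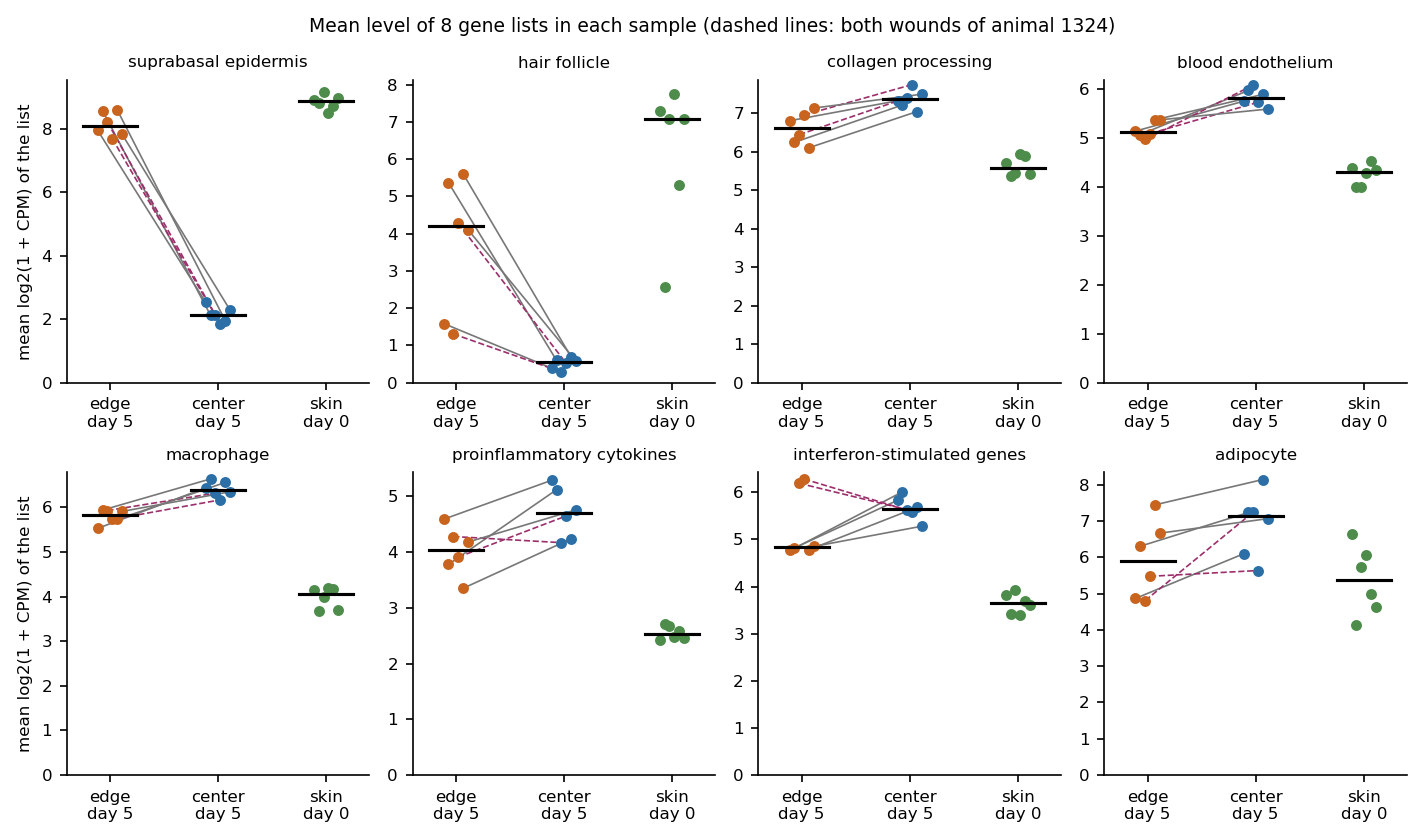
Mean log2(1 + CPM) over the genes found of 8 lists (vertical axis) in each of the 6 edge and 6 center samples of day 5 and the 6 skin samples of day 0. Lines join the edge and center sample of a wound, dashed for both wounds of animal 1324, and black bars are group medians. The suprabasal means are 7.69 to 8.6 at the edge and 1.85 to 2.53 in the center, and the interferon-stimulated means of the edge samples of animal 1324, 6.19 and 6.28, lie above those of the other 4 edge samples, 4.77 to 4.85.

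The matrix of granulation tissue was higher in the center. Of 23 provisional and granulation tissue matrix genes, all tested, 19 were called higher in the center and 1 higher at the edge, with a median of -0.98. COL3A1, the fibrillar collagen of early repair tissue, had 5810, 8290 and 18300 CPM at the edge and 13900, 21900 and 33400 CPM in the center. The ranges overlapped, but the center was higher in 6 of 6 wounds, by -1.22 ± 0.20 (adjusted p = 0.00117). COL1A1, the main fibrillar collagen of dermis, differed by -1.06 ± 0.24. CTHRC1, a secreted protein of activated fibroblasts, had 16.2, 63.6 and 176 CPM at the edge and 140, 215 and 392 CPM in the center (-1.76 ± 0.29). TNFAIP6, a hyaluronan-binding protein induced in inflammation, showed no overlap, with 26.2, 54.3 and 69.8 CPM at the edge and 89.1, 130 and 241 CPM in the center. POSTN, the matricellular protein periostin, was the exception. It had 667, 795 and 1440 CPM at the edge and 23.2, 166 and 714 CPM in the center, a difference of 2.61 ± 0.58 toward the edge in 6 of 6 wounds, and the ranges overlapped only through the center of wound 5. With wounds 1 and 3 left out, an alternative chosen after seeing the data, the list had 0 calls at the edge.

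**Figure D3:**
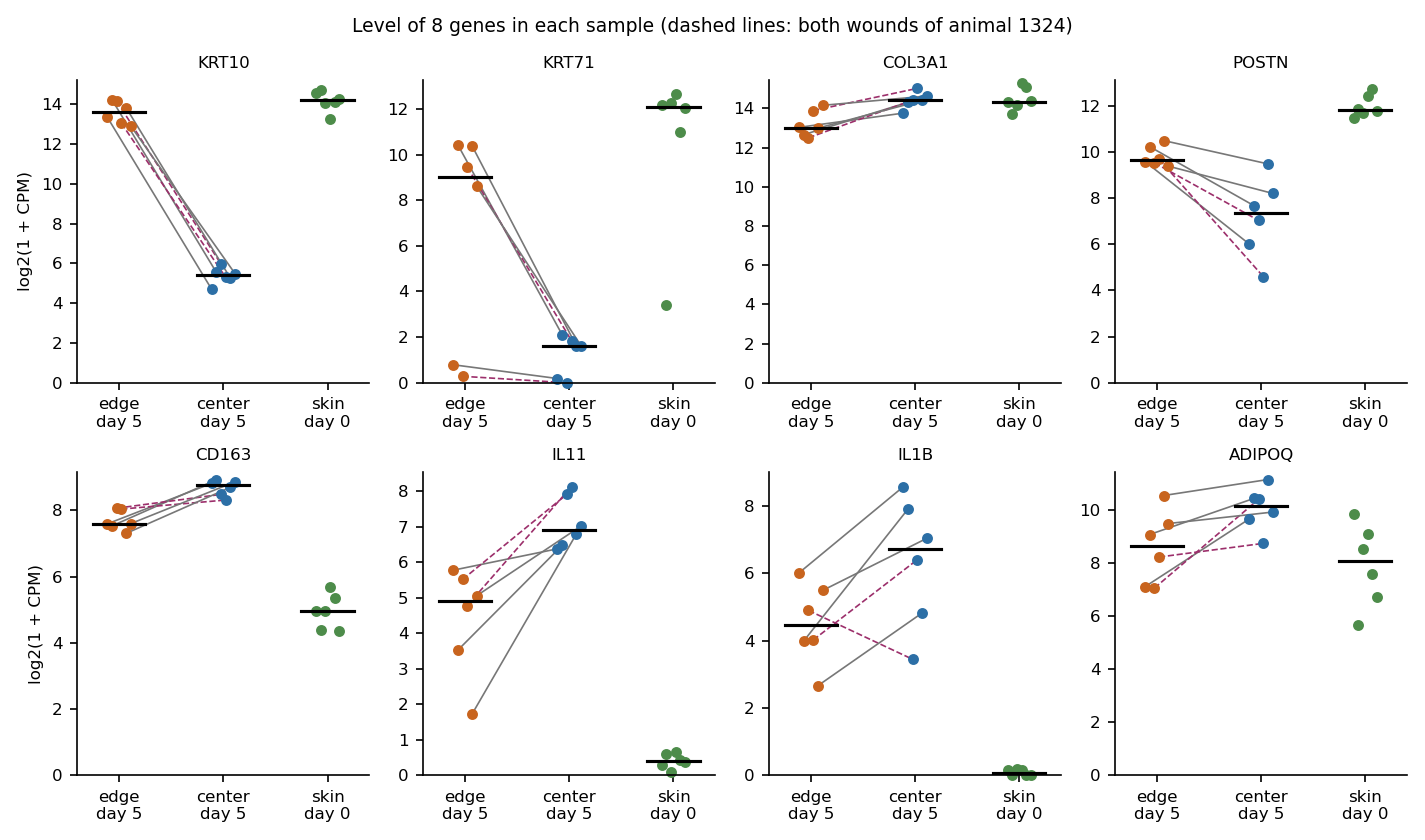
Level of 8 genes as log2(1 + CPM) (vertical axis) in each of the 6 edge and 6 center samples of day 5 and the 6 skin samples of day 0. Lines join the edge and center sample of a wound, dashed for both wounds of animal 1324, and black bars are group medians. KRT10 and IL11 do not overlap between edge and center, KRT71 is near 0 in the edge samples of wounds 1 and 3, and IL1B is higher at the edge only in wound 3.

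Genes that process collagen followed the collagens. Of 20 genes, all tested, 18 were called higher in the center, with a median of -0.93. SERPINH1, the collagen chaperone, had 322, 726 and 1230 CPM at the edge and 1220, 1820 and 2530 CPM in the center (-1.34 ± 0.16). PCOLCE, which speeds removal of the collagen propeptide, showed no overlap at -1.40 ± 0.19, and the crosslinking enzyme LOX showed none at -0.88 ± 0.14. P3H1, a collagen prolyl hydroxylase, was called higher at the edge at 2.41 ± 0.18, but 2 table entries carry that name and its value is uncertain. Of 28 tested resting dermis genes 12 were called higher in the center and 2 higher at the edge. Against the skin of day 0, 8 members of this list were higher and 12 lower in the center, and 6 higher and 15 lower at the edge. The small leucine-rich proteoglycan FMOD, which shapes collagen fibrils, had 30.1, 66.6 and 131 CPM at the edge and 173, 265 and 377 CPM in the center. In skin FMOD had 26.1 to 67.7 CPM. DCN had 600 to 1280 CPM at the edge, 1160 to 1550 CPM in the center and 1700 to 4460 CPM in skin. Its call toward the center was lost without wound 2. ELN, the gene of elastin, was called higher at the edge at 1.07 ± 0.33, and this call was lost without the block, without the filter on low counts and without wound 1, 2, 4, 5 or 6. APOD, an apolipoprotein of resting fibroblasts, was called higher at the edge at 1.90 ± 0.49 and was lost without the block and without the filter.

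Contractile genes differed less. Of 18 tested myofibroblast and smooth muscle genes 10 were called higher in the center and 1 higher at the edge. ACTA2, the actin of myofibroblasts and smooth muscle, had 157, 236 and 258 CPM at the edge and 224, 340 and 393 CPM in the center (-0.51 ± 0.16, adjusted p = 0.0297). That call was lost with the counts summed per animal and without wound 1, 2, 4 or 6. TPM2, a tropomyosin, differed by -1.35 ± 0.10. MYH11, the myosin of mature smooth muscle, was called the other way at 0.94 ± 0.29, a call lost without the filter and without wound 2, 4, 5 or 6.

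Proteases were divided by location. Of 29 tested genes of the matrix metalloproteinases, plasminogen activators and their inhibitors, 13 were called higher in the center and 5 higher at the edge. MMP13, a collagenase, had 22.6, 30.8 and 83.9 CPM at the edge and 0.357, 3.28 and 21.6 CPM in the center (3.54 ± 0.80). MMP7, an epithelial protease, differed by 5.55 ± 0.55, and SERPINB5, an epithelial serpin, by 7.51 ± 0.38. MMP1, the collagenase of migrating keratinocytes, was nearly level on day 5, with 30.7, 121 and 186 CPM at the edge and 22.6, 83.8 and 163 CPM in the center. Its difference of 0.39 ± 0.09 was called with the wound as a block and not without it (adjusted p = 0.574). MMP2, the gelatinase of stromal cells, was called higher in the center at -0.65 ± 0.21, and the call was lost with the counts summed per animal and without wound 1, 2, 3 or 4.

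Blood vessel genes were higher in the center. Of 29 endothelial and sprouting genes, all tested, 23 were called higher in the center and 0 higher at the edge (2 without wound 3), with a median of -0.83. PECAM1, an adhesion molecule of all endothelium, had 300, 363 and 427 CPM at the edge and 529, 598 and 771 CPM in the center. The groups did not overlap, and the difference was -0.78 ± 0.12 (adjusted p = 0.000812). CDH5, the cadherin of endothelial junctions, differed by -0.97 ± 0.13, and APLNR, the apelin receptor of sprouting endothelium, by -1.20 ± 0.21. VWF gave no call, but 2 entries share that name and it was near 1 CPM. Pericyte genes were called higher in the center for 6 of 11 tested members and higher at the edge for 2. PDGFRB, the receptor that recruits pericytes, differed by -0.63 ± 0.13. NOTCH3, a receptor of mural cells that keratinocytes also express, was higher at the edge at 1.10 ± 0.08, and NDUFA4L2 at 3.81 ± 0.15. Among 9 tested lymphatic genes 4 were called higher at the edge and 1 higher in the center. The list members PROX1 and FLT4 were not called (lowest adjusted p over the alternatives 0.169 and 0.156). TFF3 was called higher at the edge, at 7.36 to 8.99 over the alternatives. CCL21, the chemokine with which lymphatic vessels attract dendritic cells, had 30.8, 43.1 and 57.1 CPM at the edge and 2.75, 11.4 and 25.9 CPM in the center. LYVE1, a hyaluronan receptor of lymphatic vessels and of some macrophages, was called higher in the center at -0.91 ± 0.19, a call lost without the block.

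Macrophage genes were higher in the center. Of 23 genes, all tested, 17 were called higher in the center and 2 higher at the edge, with a median of -0.81. CD163, the hemoglobin scavenger receptor, had 157, 192 and 267 CPM at the edge and 317, 432 and 485 CPM in the center, with no overlap (-1.0 ± 0.17, adjusted p = 0.00164). ITGAM, an integrin of myeloid cells, differed by -1.45 ± 0.30 without overlap, and CD14, the co-receptor for lipopolysaccharide, by -1.32 ± 0.27. MRC1, the mannose receptor, did not pass the threshold (0.08 ± 0.15, adjusted p = 0.694). The members called higher at the edge were GPNMB, a glycoprotein that pigment and epithelial cells express too, at 0.53 ± 0.13 (not called without the block, adjusted p 0.0779), and CHI3L1, a chitinase-like secreted protein, at 1.46 ± 0.25.

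Neutrophil genes depended on single wounds. Of 22 genes, all tested, 10 were called higher in the center and 1 higher at the edge. Between 3 and 5 members were higher at the edge in wounds 1, 2, 4, 5 and 6, but 18 of 22 were higher at the edge in wound 3. The count of 10 became 5 without wound 1, 2, 4, 5 or 6 and without the filter, and 15 without wound 3. ARG1, an arginine-degrading enzyme of myeloid cells, had 94.5, 333 and 487 CPM at the edge and 225, 915 and 3060 CPM in the center (-1.71 ± 0.57, adjusted p = 0.0474), and its call was lost without the filter, with the counts summed per animal and without wound 1, 2, 4, 5 or 6. S100A8, a calcium-binding alarmin of neutrophils and of activated keratinocytes, was higher at the edge in 6 of 6 wounds, with 36.3, 179 and 349 CPM there and 18.4, 42.3 and 147 CPM in the center. The S100A8 call (1.55 ± 0.42) was lost without the block, without the filter and with the counts summed per animal.

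Proinflammatory cytokines were higher in the center where they were called. Of 28 genes found 23 were tested, and 12 were called higher in the center and 0 higher at the edge, with a median of -1.05. The number at the edge was 1 without wound 5, without the filter, with DESeq2 and with the counts summed per animal. A further 5 members did not pass the filter, so the counts over tested members leave them out. Chosen after their values were seen, IL24, IL36A and IL36G were higher at the edge. IL24 had 0.494 to 3.09 CPM there and 0 to 0.48 CPM in the center. IL36A had 0.123 to 5.15 and 0 to 0.206 CPM, and IL36G 0.449 to 2.9 and 0 CPM. IL17A reached 0.168 CPM at the edge and 0.961 CPM in the center. The 12 center calls fell to 7 without wound 4 and to 8 without the filter and without wound 2 or 6. They rose to 15 without wound 3 and with DESeq2, and were 13 with the counts summed per animal. With wounds 1 and 3 left out, an alternative chosen after seeing the data, they were 18. In wound 3, 13 of the 23 were higher at the edge, against 1 to 5 in the other wounds. IL11, a cytokine of the IL-6 family made by stromal cells, had 53.9, 10.5, 44.8, 26.5, 2.28 and 32.3 CPM in the edge samples of wounds 1 to 6 and 82.4, 88.2, 241, 281, 110 and 129 CPM in the center samples. Every center sample was above every edge sample, at -2.74 ± 0.57 (adjusted p = 0.00767). CSF3, the growth factor of neutrophils, differed by -2.31 ± 0.51. IL1B, the central cytokine of acute wound inflammation, had 5.31, 22.0 and 63.8 CPM at the edge and 9.87, 108 and 382 CPM in the center. The groups overlapped, the center was higher in 5 of 6 wounds, and wound 3 went the other way with 28.8 CPM at the edge and 9.87 CPM in the center. The IL1B difference of -2.05 ± 0.68 (adjusted p = 0.0456) was not called without the filter on low counts or without wound 1, 2, 4, 5 or 6 (highest adjusted p 0.133).

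Chemokines showed no common direction. Of 25 tested genes 3 were called higher at the edge and 4 higher in the center. CCL28, a mucosal chemokine of epithelial cells, had 25, 41.3 and 71.3 CPM at the edge and 0.000, 0.000 and 0.221 CPM in the center (9.83 ± 0.37). CCL20, which attracts CCR6-bearing lymphocytes and dendritic cells, went the other way with 0.494, 2.09 and 7.24 CPM at the edge and 4.59, 11.6 and 37.1 CPM in the center (-2.54 ± 0.38). CXCL8, the neutrophil chemoattractant, reached 4530 CPM in the center, but the center of wound 3 held the lowest value of all, 125 CPM, and the gene was not called (-1.60 ± 0.89, adjusted p = 0.192). The number called higher at the edge was 6 with DESeq2 and 5 with the counts summed per animal. The number called higher in the center rose to 9 without wound 3, and it was 7 without the block, with the counts summed per animal and with DESeq2. Antimicrobial proteins were called higher at the edge for 5 of 9 tested genes. LTF, the iron-binding protein lactoferrin, had 48.6, 69.0 and 382 CPM at the edge and 0.616, 1.03 and 4.24 CPM in the center, and the beta-defensin DEFB1 differed by 4.56 ± 0.34. LCN2, a siderophore-binding protein, was the member called higher in the center (-0.82 ± 0.22), a call lost without wound 3. Complement genes were called higher in the center for 8 of 20 tested members and higher at the edge for 3 (1 without the block), and the 8 fell to 4 without wound 1 and 3 without wound 2, 5 without the block and without wound 5, and 4 without the filter. C4A, a component of the classical pathway, differed by -1.36 ± 0.42, a call lost without the block, without the filter and without wound 1, 2 or 5. C3, the convergence point of the cascade, was higher at the edge at 1.76 ± 0.19, with 2 entries of that name.

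Interferon-stimulated genes differed in direction between animals. Of 22 tested genes 4 were called higher in the center (18.2%) and 0 higher at the edge. The center share lay near the 20.1% of all genes tested. In wounds 1, 2, 5 and 6 all 22 tested genes were higher in the center, whereas in wounds 3 and 4, both of animal 1324, 17 and 19 of the 22 were higher at the edge. The list mean of the edge samples was 6.19 and 6.28 in these wounds and 4.77 to 4.85 in the other 4, while the center samples spanned 5.28 to 6.01. MX1, a GTPase that blocks viral replication, had 225 and 252 CPM in the edge samples of animal 1324, 71.3 to 93.6 CPM in the other edge samples and 151 to 237 CPM in the centers. RSAD2 and OASL, antiviral effectors chosen after their values were seen, were at 102 and 150 CPM and at 19.7 and 26.2 CPM in the edge samples of animal 1324, against 14 to 18.5 CPM and 0.0561 to 0.556 CPM in the other edge samples. The count of 4 became 22 with both wounds of animal 1324 left out, an alternative chosen after these values were seen and therefore no support for the direction. It was 11 without wound 4, 1 without wound 1, 2 or 5, 2 without wound 6, 2 without the block and with the counts summed per animal, and 1 without the filter. BST2, an antiviral membrane tether, was called in every alternative in which single genes were followed, with 24.6, 30.8 and 51.8 CPM at the edge and 58.9, 66.7 and 71.6 CPM in the center.

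T and NK cell genes also differed in direction between animals. Of 22 tested T and NK cell genes 4 were called higher in the center (18.2%), near the 20.1% of all genes tested. In wounds 3 and 4, 19 and 15 of the 22 were higher at the edge, against 1 to 3 in the other wounds. With both wounds of animal 1324 left out 13 were called. That alternative was chosen after these values were seen and is therefore no support for the direction. The number was 2 without wound 1, 2, 5 or 6 and with the counts summed per animal, and 7 without wound 3. CCR7, the receptor that guides naive T cells and mature dendritic cells, had 9.63, 15.5 and 22.4 CPM at the edge and 28.2, 37.6 and 58.1 CPM in the center, with no overlap (-1.28 ± 0.10). CD3E and CD3D, subunits of the T cell receptor complex, were not called, at -0.23 ± 0.24 and -0.10 ± 0.21. Of 14 tested antigen presentation genes 6 were called higher in the center, and 3 without wound 2 or 5. The count was 10 with both wounds of animal 1324 left out, which again is no support for the direction. The antigen presentation genes did not turn by animal in the same way, since 6 and 9 of the 14 were higher at the edge in wounds 3 and 4, 4 in wound 6 and 0 or 1 in the other wounds. CD86, a co-stimulatory ligand, differed by -0.63 ± 0.14. Of 12 tested B and plasma cell genes 2 were called higher in the center (16.7%), below the 20.1% of all genes tested. These were CD22, a receptor of B cells (-1.13 ± 0.29), and CD79A (-0.92 ± 0.29). CD79A lost its call without the block, with the counts summed per animal and without wound 1, 3, 5 or 6.

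Hypoxia and energy genes did not move together. Of 26 tested hypoxia and glycolysis genes 8 were called higher at the edge and 6 higher in the center, with a median of 0.02. MXI1, a MYC antagonist, had 52.2, 72.0 and 85.9 CPM at the edge and 12.6, 14.5 and 16.8 CPM in the center. EGLN3, an oxygen-sensing prolyl hydroxylase, differed by 2.36 ± 0.56 toward the edge. HIF1A, the oxygen-regulated transcription factor subunit itself, was higher in the center at -0.41 ± 0.08, with 239 to 318 CPM at the edge and 319 to 422 CPM in the center. VEGFA, the main angiogenic growth factor, was not called (-0.22 ± 0.10, adjusted p = 0.114). SLC2A1 and CA9 were not found under these names. Of 24 tested respiratory chain genes 2 were called, both higher in the center (8.33%, beside 20.1% of all genes tested). These were the succinate dehydrogenase subunits SDHA and SDHB, at -0.31 ± 0.08 and -0.25 ± 0.08, and both calls were lost without wound 2 or 5. The SDHB call was also lost without wound 3 or 6, without the filter and with the counts summed per animal.

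In the EGF receptor family 5 of 13 tested genes were called higher at the edge, and 9 with DESeq2. EGFR, the receptor through which keratinocytes answer to EGF ligands, had 126, 180 and 225 CPM at the edge and 28.3, 41.2 and 45.8 CPM in the center (2.22 ± 0.15), and ERBB3 differed by 3.92 ± 0.15. ERRFI1, an inhibitor of EGFR, was higher in the center at -0.50 ± 0.11. Of 21 tested FGF, HGF, IGF and PDGF pathway genes 7 were called higher at the edge and 9 higher in the center. FGFR3, a receptor of epithelial cells, had 256, 331 and 428 CPM at the edge and 8.72, 12.5 and 16.7 CPM in the center. MET, the receptor for hepatocyte growth factor, was higher at the edge at 2.56 ± 0.23, while its ligand HGF, chosen after its value was seen, was higher in the center at -1.04 ± 0.14. FGF10, a fibroblast ligand for epithelial receptors, was not called (-0.75 ± 0.46, adjusted p = 0.224).

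In the TGF-beta, activin and BMP pathway 6 of 26 tested genes were called higher at the edge (23.1%) and 8 higher in the center (30.8%). Over all genes tested these shares were 21.7% and 20.1%. BMP7, a ligand of epithelial tissues, had 50.0, 77.4 and 92.5 CPM at the edge and 0.283, 0.537 and 0.880 CPM in the center (7.05 ± 0.25). The antagonists GREM1 and FST were also higher at the edge, at 2.51 ± 0.37 and 2.42 ± 0.28. TGFB1 and TGFB2, ligands that drive matrix deposition, were called higher in the center at -0.38 ± 0.12 and -0.69 ± 0.16, and both calls were lost without the block (highest adjusted p 0.119 and 0.116). The TGFB1 call was also lost without wound 2, 4 or 5. In the WNT list 11 of 29 tested genes were called higher at the edge and 4 higher in the center. WNT3, WNT3A and WNT10A, ligands of epidermis and hair, were higher at the edge by 6.28 ± 0.27, 6.55 ± 0.51 and 7.56 ± 0.31. WNT5A, a stromal ligand, went the other way with 21.2, 122 and 190 CPM at the edge and 168, 281 and 505 CPM in the center (-1.65 ± 0.25). SFRP2, a secreted WNT modulator of fibroblasts, had 350, 556 and 1300 CPM at the edge and 1530, 2380 and 3900 CPM in the center, without overlap. Among 30 tested HOX and TBX positional genes 7 were called higher at the edge (23.3%) and 8 higher in the center (26.7%). These shares lie near the 21.7% and 20.1% of all genes tested. The count of 8 was 5 without wound 2 or 4, 12 without wound 6 and 10 with DESeq2. HOXC4 differed by 1.35 ± 0.20 and TBX2 by -1.46 ± 0.24. Immediate early genes, which respond within minutes to stress and growth signals, were split as well, with 6 of 19 called higher at the edge and 3 higher in the center. KLF4, a transcription factor of the differentiating epidermis, had 186, 249 and 413 CPM at the edge and 18.1, 38.2 and 70.9 CPM in the center (2.80 ± 0.12), while FOS was not called (-0.70 ± 0.42, adjusted p = 0.225). The 3 center calls fell to 0 without wound 1, 2 or 5 and to 1 without wound 4, and were 5 without wound 6.

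Fat genes were higher in the center in most members of each wound, and muscle genes were high in a single sample. Of 15 adipocyte genes, all tested, 8 were called higher in the center and 0 higher at the edge, with a median of -1.28. Between 11 and 14 of the 15 were higher in the center in each wound, beside 6823 to 7762 of all 14409 genes tested. ADIPOQ, the hormone of fat cells, had 137, 540, 132, 299, 1500 and 720 CPM in the edge samples of wounds 1 to 6 and 812, 1390, 1360, 428, 2280 and 972 CPM in the center samples. The center was higher in 6 of 6 wounds, but the ranges overlapped, and the difference (-1.44 ± 0.45, adjusted p = 0.0384) was lost without the block, without the filter and without wound 1, 2 or 5. The list count fell from 8 to 2 without the block and to 4 without the filter or without wound 1, 2 or 5, and without wound 3 there was 1 call at the edge. Skeletal muscle genes passed the filter for 6 of 18 members found and gave 0 calls, with 5 genes below an adjusted p of 0.05 without the filter, 4 without the block and 3 with DESeq2. The center sample of wound 6 stood apart, with a list mean of 6.02 against 0.56 to 0.84 in the other centers. It held 400 CPM of ACTA1, the actin of skeletal muscle, against 0.0471 to 1.21 CPM in the other 5 centers.

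Genes with the largest differences were taken by a fixed rule from those called with the same direction in 6 of 6 wounds (2831 higher at the edge and 2254 higher in the center) and a mean of at least 1 CPM. The 12 highest at the edge included C5orf46, at 10.51 ± 0.34, which had 7.53, 20.3 and 53.0 CPM at the edge and 0.000, 0.000 and 0.0510 CPM in the center. With centers at or near 0 these fitted folds depend on the prior count, and over the alternatives that of C5orf46 was 9.92 to 11.7, that of CCL28 9.45 to 11.2 and that of KRT79 9.6 to 11.37. The 12 also held CCL28, KRT79, KRT75, KRT3, FLG2 (ENSSSCG00025060263), SOX21, AADACL2 and CA6, with center medians of 0. Another FLG2 entry, ENSSSCG00025060377, had 164 to 1060 CPM at the edge and 0.0686 to 3.23 CPM in the center. Several entries also carry the names KRT75 and TENM2, so values of these genes and of FLG2 are uncertain. For TENM2, OTX1 and TMPRSS2 all center counts were 0. Against a floor of 3 counts over the 6 center samples, the edge was at least 230-fold higher for TENM2, at least 172-fold higher for OTX1 and at least 127-fold higher for TMPRSS2. The 12 with the largest center excess were smaller in size and often low in level. MG53, a membrane repair protein of striated muscle, led with -2.87 ± 0.80, but its center value in wound 6 was 16.1 CPM against a center median of 1.03 CPM, and its call was lost without wound 2 or 6. PGAM2, the muscle form of phosphoglycerate mutase, reached 64.3 CPM in the same sample and lost its call with the counts summed per animal. IL11, CSF3 and CCL20 were among the 12. C1QTNF3, a secreted protein of the C1q family, had 10.5, 28.6 and 126 CPM at the edge and 78.5, 145 and 306 CPM in the center (-2.22 ± 0.26). PAX1, a patterning transcription factor, had 0.0543, 1.04 and 5.36 CPM at the edge and 1.99, 6.16 and 13.4 CPM in the center.

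The difference between edge and center on day 5 was compared with that on day 1, in other wounds of the same 3 animals, by a test of the difference itself. It changed for 1856 of 15348 genes (12.1%), toward the edge for 1065 (6.94%) and toward the center for 791 (5.15%). Cell cycle genes changed together. Of 27 genes 27 moved toward the center. CDK1, the kinase of entry into mitosis, was higher at the edge on day 1 at 3.11 ± 0.39 and lower at the edge on day 5 at -0.48 ± 0.08, with 20.9, 36.5 and 45.1 CPM at the edge and 35.5, 53.3 and 57.3 CPM in the center. The day 5 call of CDK1 was lost without the block (adjusted p 0.0576). MKI67, a marker of cycling cells, was at 2.25 on day 1 and was not called on day 5 (0.20 ± 0.12, adjusted p = 0.210). On day 5 alone 10 of the 27 genes were called higher in the center, but only 3 without the block and with the counts summed per animal, 6 without wound 4 and 4 without wound 5. Their median was -0.18.

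**Figure D4:**
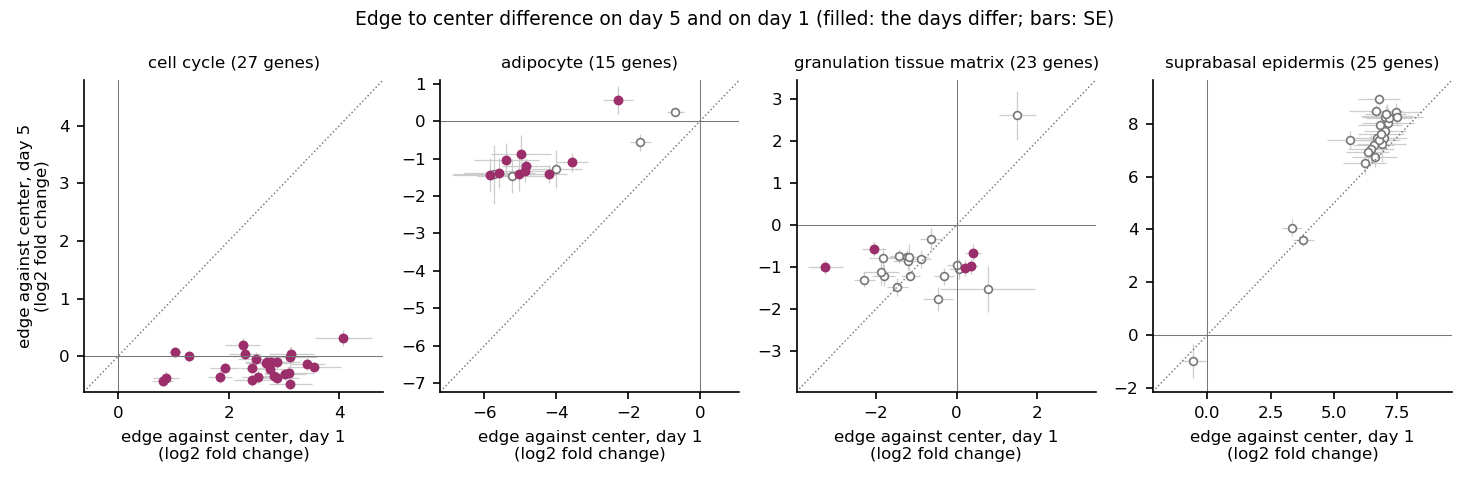
Log2 fold change of edge against center on day 1 (horizontal axis) and on day 5 (vertical axis) for the tested genes of 4 lists, with SE as bars. Filled points are genes for which the test of the difference between the days passed the threshold, and the dotted line marks equal differences. All 27 cell cycle genes are filled and lie below the line, and 10 of 15 adipocyte genes are filled and lie above it.

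Adipocyte genes moved the other way. Of 15 genes 10 changed toward the edge. ADIPOQ was at -5.85 ± 1.05 on day 1 and -1.44 ± 0.45 on day 5, and the difference between the days was 4.41 ± 1.28 (adjusted p = 0.0428). MMP1 changed most among the proteases named here, from 6.27 on day 1 to 0.39 on day 5 (difference between the days -5.88, adjusted p = 0.00188). WNT5A changed by -2.34 and COL1A2, a type I collagen chain, by -1.23. ANO4, STMN2, FRMD7 and SPHKAP, taken by the rule with MMP1, changed by -6.02, -6.01, -5.68 and -5.41 between the days. HSD3B, a steroid-converting enzyme, changed the most toward the edge, by 7.08. It had 0.706, 4.20 and 25.8 CPM at the edge on day 5 and 0.000, 0.000 and 0.510 CPM in the center. The suprabasal list, with 0 of 25 changes, and the collagen processing list, with 0 of 20, gave no call of a difference between the days. The count of 1856 fell to 1009 without wound 4, and was 1235 and 1136 without wounds 5 and 6.

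Against day 7 the edge to center difference changed for 1 of 15163 genes (0.0066%), with 1605 genes below 0.05 before adjustment. The number was 96 with DESeq2, 3 without the block and with library size alone, 2 without the filter, and 0 to 2 with each day 5 wound left out in turn. The gene was carboxypeptidase M, whose symbol is CPM, an enzyme on the surface of macrophages and epithelial cells. It was at 37.8, 50.9 and 72.4 at the edge and 27.5, 30.9 and 37.5 in the center on day 5, in counts scaled to CPM as for all genes here. Its log2 fold change was 0.67 ± 0.15 on day 5 and -0.76 on day 7.

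Both locations were set beside the excised skin of day 0 in one fit, so the 2 comparisons share the skin samples. At the edge 8448 of 15273 genes differed from skin (55.3%), 4326 higher (28.3%) and 4122 lower (27.0%). In the center the number was 11078 (72.5%), 5449 higher (35.7%) and 5629 lower (36.9%). This fit has no animal block, although the skin of animals 1323, 1324 and 1325 is among the day 0 samples. With the skin of these 3 animals alone and the animal as a block, 7040 genes differed at the edge and 10355 in the center. KRT10 had a skin median of 18700 CPM. It differed from skin by -8.85 ± 0.37 in the center and by -0.58 ± 0.27 at the edge, where it did not pass the threshold (adjusted p = 0.0706). Of the tested suprabasal genes 24 were lower in the center and 9 lower at the edge. KRT6C, which had a skin median of 924 CPM, had an edge median of 7500 CPM and a center median of 29.0 CPM. Hair follicle genes were lower than skin for 12 members at the edge and 19 in the center.

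**Figure D5:**
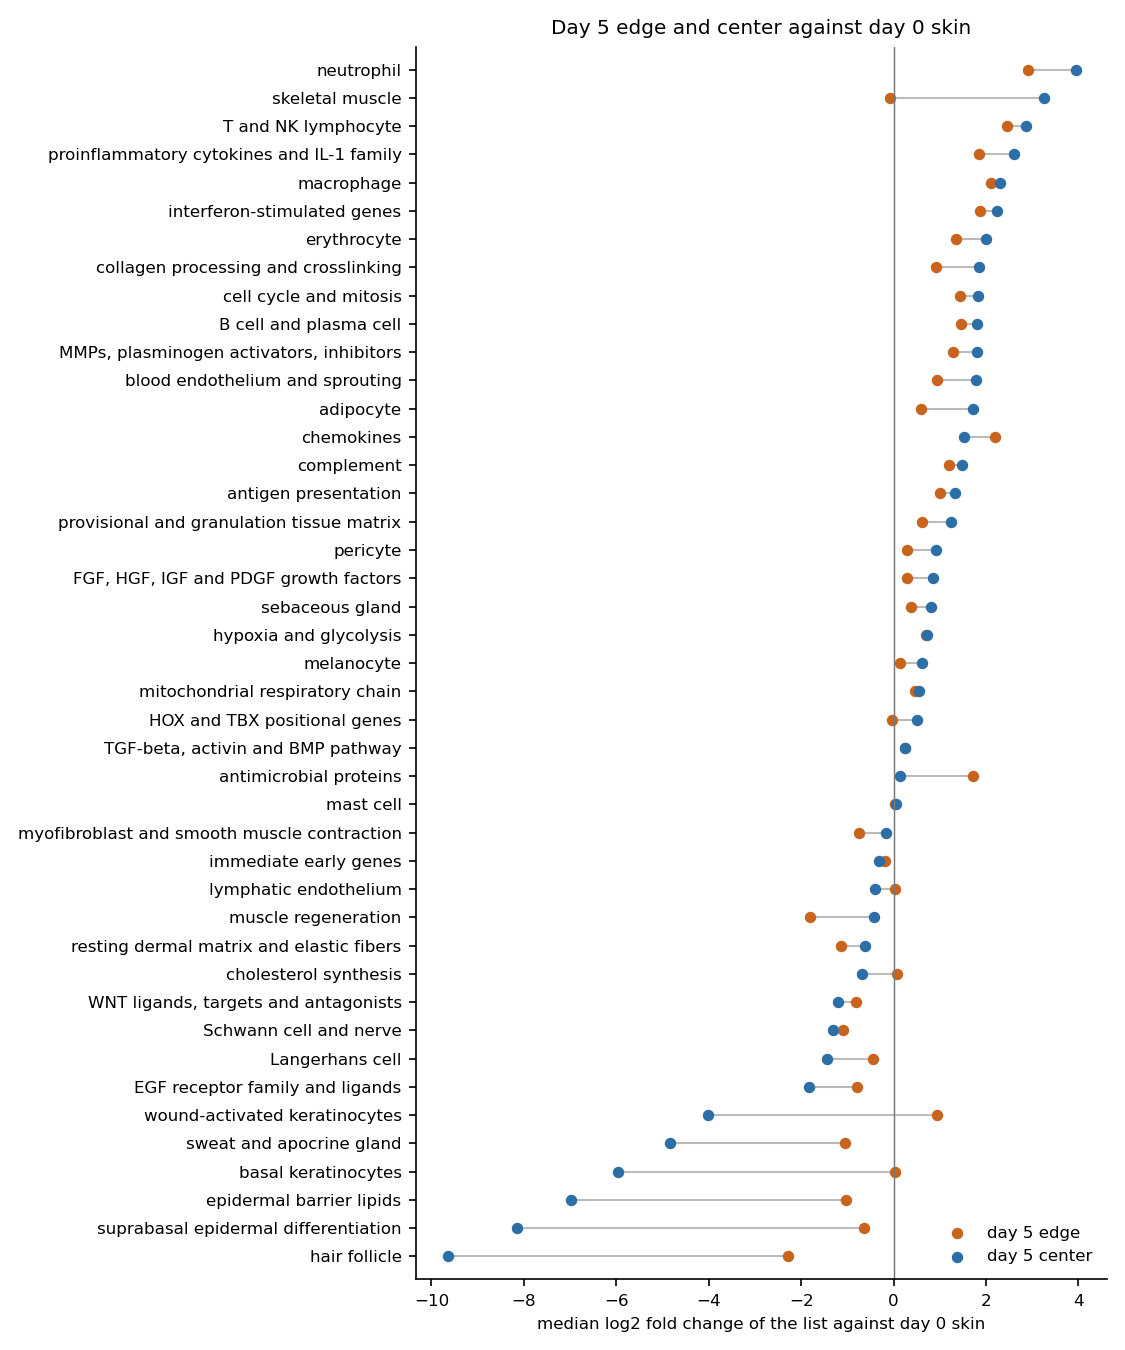
Median log2 fold change of each gene list against day 0 skin (horizontal axis) for the day 5 edge (orange) and the day 5 center (blue), joined by a grey line per list. The keratinocyte, hair follicle and sweat gland lists have center medians of -9.65 to -4.02 with edge medians between -2.29 and 0.95, and the neutrophil list has the highest medians at both locations, 2.92 at the edge and 3.94 in the center.

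Genes of several immune lists were above skin at both locations. For neutrophil genes 19 of 22 were higher than skin at the edge and 19 in the center, and for interferon-stimulated genes 22 of 22 at both. Mast cell genes were higher than skin for 1 of 5 at each location. Of 18 myofibroblast genes 10 were lower and 4 higher at the edge, and 6 lower and 7 higher in the center. CD163 differed from skin by 2.70 ± 0.21 at the edge and 3.71 ± 0.22 in the center. IL1B, at a skin median of 0.0518 CPM, differed by 8.78 ± 1.26 at the edge and 11.16 ± 1.27 in the center, fold changes that depend on the prior count because the skin samples lay under the floor. COL3A1 was lower than skin at the edge (-1.29 ± 0.31) and did not differ from it beyond the threshold in the center (-0.15 ± 0.31, adjusted p = 0.672). POSTN was below skin at both, by -2.21 ± 0.57 at the edge and -4.18 ± 0.62 in the center. PECAM1 was above skin by 1.08 ± 0.13 at the edge and 1.87 ± 0.13 in the center. Cell cycle genes were higher than skin for 27 of 27 at the edge and 26 of 27 in the center, and CDK1 differed by 1.92 ± 0.19 and 2.4 ± 0.19.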

How the data were processed

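RNA of 12 day 5 biopsies (6 edge and 6 center) and of the comparison samples of days 0, 1 and 7 was sequenced as poly-A enriched paired-end libraries by a provider, which removed adapter and low-quality reads, aligned and counted them. The aligner, counter, genome build and strand setting are not given in the sources used here. The deposited table holds raw counts per gene that the authors had made, and these whole-number counts were used as deposited. The FPKM table was not used. Of 30461 genes listed, 12300 were named by the table's name column and 9387 by its protein match, and 8774 stayed unnamed. Symbols carried by several entries are uncertain.

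Genes were filtered with edgeR's filterByExpr (minimum count 10, minimum total 15), scaled by TMM and tested with edgeR 4.0.16 (robust quasi-likelihood test, R 4.3.3, two-sided) with the wound as a block, and p-values were adjusted by the Benjamini-Hochberg method over all genes tested. The SE is the log2 fold change divided by the square root of the F statistic. The labels give an edge and a center sample of the same animal and wound the same identifiers, so the block is the wound. Deviations from the group means correlated between the 2 samples of a wound at -0.074 to 0.535. Wounds of 1 animal are not independent animals, so p-values over wounds measure the spread between 6 wounds of 3 animals. An alternative summed the counts per animal. Differences between days were tested as interactions, and both locations were compared with skin in 1 fit of 18 samples. DESeq2 1.42.0 was an alternative. Other alternatives were no block, RLE size factors, library size alone, no filter and each wound left out in turn. A further 2, leaving out wounds 3 and 4 or wounds 1 and 3, were chosen after seeing the data. On counts simulated for 6 pairs and 14409 genes, edgeR recovered 85.0% of 2-fold and 97.0% of 4-fold changes, with 5.21% of calls false, and DESeq2 recovered 90.0% and 99.0%, with 19.9% false. In that simulation only 200 genes were changed, all drawn from genes with higher counts. Its wounds had a set spread and shared nothing within an animal. These rates therefore need not hold for the calls reported here.

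The 43 gene lists (955 entries, 855 found, 756 tested) and the members were chosen with earlier results of these data known. Named genes were the 12 largest differences each way among called genes with the same direction in 6 of 6 wounds and a mean of at least 1 CPM, the first 3 found, the 3 largest called and the called members against the majority of each list, IL1B and KRT10, and the 5 largest changes each way between days. Genes outside this rule are marked as chosen after their values were seen, and a few genes that meet it are not reported here. Python 3.11.15 and matplotlib 3.10.9 made the tables and figures.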

Additional observations from a re-analysis of the deposited data

Results flagged for a closer look

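Dixon's ratio was taken for the 6 edge and the 6 center samples, on the mean of each list and on the correlation of counts. In 8 of these 88 ratios 1 sample stood apart, which chance gives in about 1 of 20 independent ratios. The 88 ratios are repeated measures of the same 12 samples and are not independent, so these shares cannot be compared. The center of wound 1 was the highest center for 3 epidermal lists, with list means of 5.1 against 3.12 to 3.54 for basal keratinocytes (ratio 0.786), 3.83 against 2.08 to 2.39 for wound-activated keratinocytes (ratio 0.821) and 1.89 against 1.57 to 1.67 for barrier lipids (ratio 0.664). The center of wound 6 was the highest for skeletal muscle, at 6.02 against 0.56 to 0.84 (ratio 0.95), and for muscle regeneration, at 1.23 against 0.51 to 0.58 (ratio 0.895). The edge of wound 5 was the highest edge for Schwann cell and nerve genes, at 2.93 against 2.29 to 2.51 (ratio 0.661), and for antimicrobial proteins, at 3.78 against 3.22 to 3.39 (ratio 0.695). The edge of wound 6 had the lowest mean correlation of counts with the other edge samples, 0.824 against 0.874 to 0.898 (ratio 0.671).

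The edge to center difference changed between day 1 and day 5 for 1856 genes and between day 7 and day 5 for 1 gene, each by a test of the interaction.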

How the results depend on the processing

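Without the wound as a block 2929 genes were called higher at the edge and 2421 higher in the center. Over the alternatives run, including the 2 chosen after seeing the data, both counts stayed within 1.5 times of 3122 and 2902. With each wound left out in turn they were 2691 to 3050 and 1990 to 2659. Of 219 called genes that the text's rule names, 156 were called in every setting, leaving aside these 2, in which single genes were not followed, 63 lost the call in at least 1, and 0 changed direction. The causes were not tested.

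The 1 gene that changed between day 7 and day 5 became 3 without the block and with library size alone, 2 without the filter, 96 with DESeq2 and 0 to 2 with each wound left out. The 1856 genes that changed between day 1 and day 5 became 2857 with DESeq2 and 1009 to 1714 with each wound left out. The Dixon ratio of 0.671 for the edge was 0.242 on log2(1 + CPM) and 0.294 with the Spearman coefficient.

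Genes that were not called changed sign as follows. With DESeq2 the log2 fold change was 0.04 for CA3. With each wound left out in turn it ranged from -0.37 to 0.21 for CNN1, -0.04 to 0.17 for MRC1, -0.26 to 0.03 for CD3D, -0.53 to 0.04 for MS4A1, -0.04 to 0.07 for NDUFA9, -0.17 to 0.12 for WNT2B, -0.87 to 0.15 for MYOC and -0.39 to 0.37 for CA3.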
